A study of Mus musculus with 4 samples.

Results

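The collagen chains are the genes that encode the alpha chains of the collagen proteins. They were taken from the arrays by symbol, as every non-control spot whose gene name consists of Col, a type number, the letter a and a chain number. This gave 41 genes, measured by 74 probes on 92 spots, of 30038 gene names, 41174 probes and 43379 spots in all. The rule itself uses names and no measured value. The arrays had no spot under Col6a3, Col6a5, Col21a1 or Col26a1.

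The study compared liver cells of C57BL/6NCr mice at a fetal and an adult stage. Of the 4 arrays, 2 carried Cy3-labelled RNA of embryonic day 13 liver hepatoblasts, called E13 hepatoblasts here, and 2 that of liver hepatocytes taken at 8 weeks of age, called adult hepatocytes. Hepatoblasts are the fetal progenitors of hepatocytes and of bile duct cells. How the cells were isolated, how many animals gave each sample and whether animals were pooled are not given in the sources used here, so a p-value here reflects how far these particular samples scatter, and that scatter may be technical. Values are log2 signals relative to the 75th percentile of the array, so every difference is relative to that percentile and 0 marks its level. A probe is called detected where the scanner software marked it as well above background.

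A collagen molecule is a triple helix of 3 alpha chains, each built of repeats of glycine and 2 further residues, many of them proline or hydroxyproline. The fibrillar chains form the load-bearing fibres of connective tissue, type IV chains form the sheet-like network of basement membranes, and the fibril-associated, beaded-filament and multiplexin types link fibres, cells and basement membranes. In the liver, stellate cells and portal fibroblasts are known as the main makers of fibrillar collagen, and hepatocytes as the main makers of type XVIII, the source of endostatin. Because a probe's brightness also depends on its own sequence, levels below are compared between arrays and not between genes.

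Promoter windows of 3 fibrillar chains are shown because these genes differed in opposite directions in the comparison described below. Col1a2 and Col3a1 were far brighter in E13 hepatoblasts, and Col5a3 far brighter in adult hepatocytes. Each window holds the 250 bases before the annotated transcription start, 5′ to 3′ on the strand of the gene, from RefSeq on GRCm38.p6. They lie at chr6:4505368-4505617 on the plus strand for Col1a2, at chr1:45311288-45311537 on the plus strand for Col3a1 and at chr9:20815068-20815317 on the minus strand for Col5a3. Capitals mark CCAAT (the core of the CCAAT box), TATAA (the TATA box) and GGGCGG (the GC box), searched on both strands. In Col3a1 the 6 capitals hold TATAA on both strands in overlapping copies.
Col1a2: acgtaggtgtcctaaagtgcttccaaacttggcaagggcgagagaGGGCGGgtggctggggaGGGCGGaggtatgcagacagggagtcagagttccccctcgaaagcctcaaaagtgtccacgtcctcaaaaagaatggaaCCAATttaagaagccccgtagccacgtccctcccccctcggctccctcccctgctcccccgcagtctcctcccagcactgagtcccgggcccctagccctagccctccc
Col3a1: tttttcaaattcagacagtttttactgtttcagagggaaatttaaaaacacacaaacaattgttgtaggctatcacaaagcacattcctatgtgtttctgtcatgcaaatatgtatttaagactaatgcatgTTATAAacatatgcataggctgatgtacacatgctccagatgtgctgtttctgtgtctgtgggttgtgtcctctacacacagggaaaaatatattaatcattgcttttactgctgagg
Col5a3: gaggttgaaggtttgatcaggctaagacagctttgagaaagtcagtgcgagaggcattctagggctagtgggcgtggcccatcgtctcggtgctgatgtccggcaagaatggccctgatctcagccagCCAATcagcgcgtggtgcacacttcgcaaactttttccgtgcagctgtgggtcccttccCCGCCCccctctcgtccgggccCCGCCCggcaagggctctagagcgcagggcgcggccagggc
Col1a2 held a CCAAT 109 bases before the start and GGGCGG at 205 and 188 bases before it. Col5a3 held a CCAAT 122 bases before the start and GGGCGG, on the other strand, at 63 and 41 bases. Neither of these motifs was in the Col3a1 window, whose TATAA copies began 118 and 117 bases before the start. Of the 41 genes, 33 were matched to 36 windows in the promoter table, and Col1a1 was not among them. GGGCGG was in 58.3% of the 36 collagen windows against 32.7% of the 32851 windows of all genes, CCAAT in 36.1% against 33.8%, and TATAA in 19.4% against 22.8%. GGGCGG was in 63.6% of the 11 windows of genes called higher in E13 hepatoblasts and in 62.5% of the 8 windows of genes called higher in adult hepatocytes. These shares describe letters in a window and were not tested.

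Of the 41 collagen genes, 17 were detected on all 4 arrays, 7 on both E13 arrays and no adult array, 2 on both adult arrays and no E13 array, and 11 on no array. The other 4 were Col5a1 and Col5a3, described below, and Col4a5 and Col25a1, which were detected on E13 array 1 alone. Detection on both E13 arrays and no adult array thus held for 17.1% of the collagen genes, against 7.69% of all 30030 genes. Detection on both adult arrays and no E13 array held for 4.88% of them, against 1.45% of all genes. By array, 28 and 25 collagen genes were detected on the E13 arrays and 21 and 20 on the adult arrays.

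A gene was tested where a probe of it was detected on both arrays of at least 1 group, which kept 28 of the 41 collagen genes among 16422 genes. In the limma fit over all of these genes, a gene was called at a Benjamini-Hochberg adjusted p under 0.05. Of the 28 collagen genes, 13 (46.4%) were called higher in E13 hepatoblasts, 8 (28.6%) higher in adult hepatocytes, and 7 passed in neither direction. Of all genes tested, 64.8% were called, 32.8% as higher in E13 hepatoblasts and 32.1% as higher in adult hepatocytes, so a call by itself was common on these arrays. The median log2 difference, adult minus E13, was -0.88 over the 28 collagen genes and -0.0097 over all genes tested. Of the 28, 15 had both E13 arrays above both adult arrays, against 43.1% of all genes tested, and 9 had both adult arrays above both E13 arrays, against 42.7%. These numbers describe the genes that passed the filter. A gene can enter the test through the group in which it is bright, and 11 of the 28 passed on the arrays of 1 group only, so the counts do not stand for all 41 genes. With every probe tested and no filter, all 41 gave 13 and 12 calls and a median of 0.11. Without a filter, 18.3% and 48.7% of all genes were called in these directions, with a median of 0.75.

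The split between the directions moved with the scale. Scaling to the spike-in control probes, which report control transcripts added for labelling, lowered the median of all genes tested to -1.24. It left 18 of the 28 collagen genes called higher in E13 hepatoblasts and 3 in adult hepatocytes. Of all genes tested, 68.6% and 12.2% were called in these directions, so neither collagen share was above that of all genes. With the normexp background correction the counts were 12 and 11, beside 27.7% and 40.4% of all genes.

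**Figure D1:**
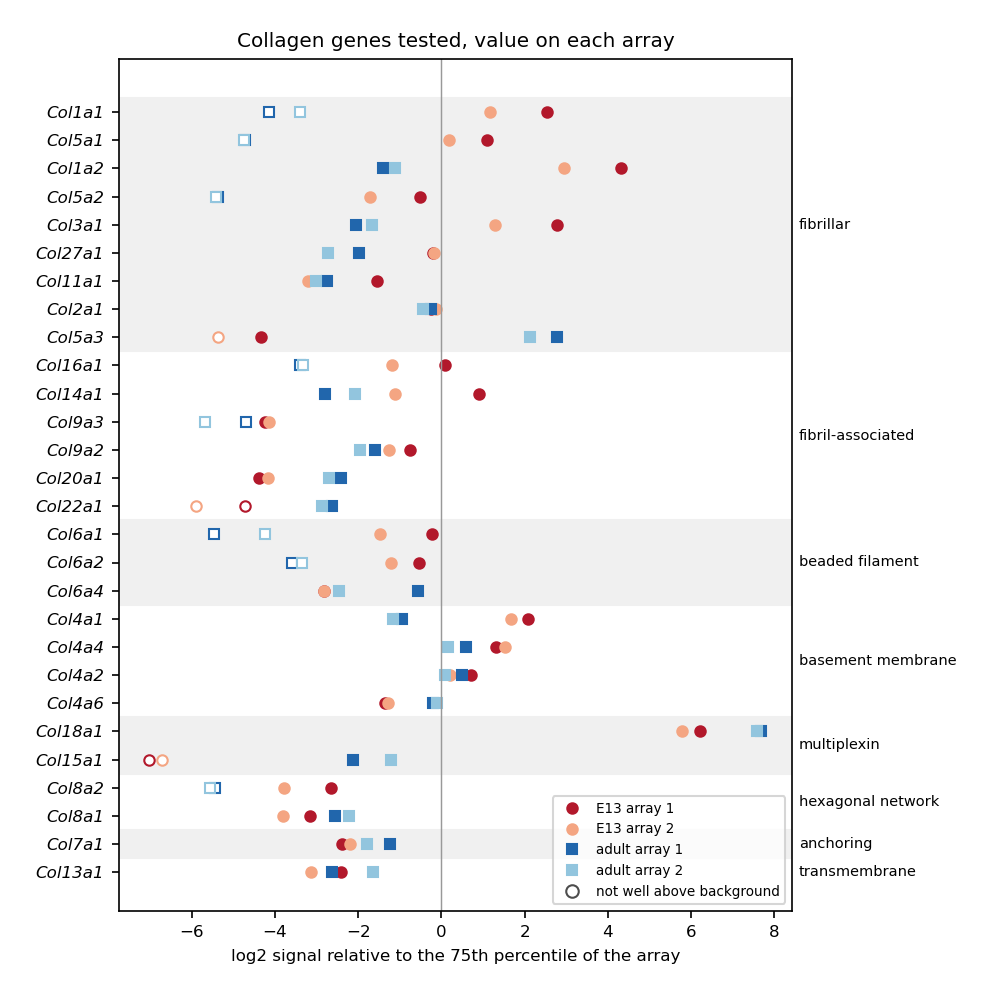
Level of the 28 collagen genes tested (x axis, log2 signal with the 75th percentile of each array at 0), 1 row per gene, grouped by the class of the protein. Circles are the E13 arrays and squares the adult arrays, and open symbols were not well above background. The fibrillar chains Col1a1, Col1a2 and Col3a1 lie right of 0 on both E13 arrays and left of 0 on both adult arrays, and Col5a3 shows the opposite order.

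The fibrillar class held the widest differences. Of its 11 genes, 9 were tested, 6 were called higher in E13 hepatoblasts (Col1a1, Col1a2, Col3a1, Col5a1, Col5a2 and Col27a1), 1 higher in adult hepatocytes (Col5a3) and 2 in neither direction (Col2a1 and Col11a1). The calls made up 66.7% and 11.1% of the 9, against 32.8% and 32.1% of all genes tested. Col11a2 and Col24a1 were detected on no array.

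Col1a2 encodes the alpha 2 chain of type I collagen, the main fibre-forming collagen. It stood at 4.31 and 2.95 on the E13 arrays and at -1.41 and -1.12 on the adult arrays. Both E13 values were above both adult values by more than the arrays of either group differed, and all 4 arrays detected it. The level was 29.7-fold higher in E13 hepatoblasts (log2 difference, adult minus E13, -4.89 ± 0.48 SE, adjusted p = 0.0013).

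Col1a1 encodes the alpha 1 chain, of which type I collagen holds 2 copies. Its probe, spotted 10 times on each array and placed at chr11:94813075-94813134 of mm9, read 2.53 and 1.18 on the E13 arrays. On the adult arrays it read -4.14 and -3.41, with none and 2 of the 10 spots detected, and was counted as not well above background there. Col1a1 was therefore at least 39.6-fold higher in E13 hepatoblasts (adjusted p = 0.0011). Such a bound sets the mean of the bright group against the lowest detected signal on each array of the dim group, or against the probe's own value where that is higher. A further Col1a1 probe (chr11:94812052-94812111, mm9) read -0.10 and -1.13 against -5.30 and -5.56 and gave a bound of 7.16-fold in the same direction.

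Col3a1, the chain of type III collagen that mixes with type I in soft tissue, read 2.77 and 1.29 on the E13 arrays against -2.06 and -1.66 on the adult arrays. All 4 arrays detected it and the groups were far apart. The level was 14.8-fold higher in E13 hepatoblasts (adjusted p = 0.0034).

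Type V collagen starts fibrils and sets their width, and its 3 chains did not go together. Col5a1 read 1.09 and 0.19 on the E13 arrays and -4.72 and -4.73 on the adult arrays, where it was not detected, which put it at least 17.1-fold higher in E13 hepatoblasts (adjusted p = 0.00036). Col5a2 read -0.51 and -1.72 against -5.37 and -5.41, again not detected on the adult arrays, a bound of 5.08-fold (adjusted p = 0.0013). Col5a3 had the reverse order.

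The Col5a3 probe (chr9:20574592-20574651, mm9) read -4.33 and -5.36 on the E13 arrays, of which only array 1 detected it, and 2.77 and 2.14 on the adult arrays. The fitted log2 difference was 7.29 ± 0.42 SE in favour of adult hepatocytes (157-fold, adjusted p = 0.00031), the widest of any collagen gene tested. Against the lowest detected signal of E13 array 2, in place of the undetected value there, it was at least 114-fold. With the normexp background correction, which compresses dim values, the log2 difference was 4.85, and under the 15 alternatives that kept the gene it lay between 4.85 and 7.81, past the threshold in each. A further probe, placed at chr9:20590066-20590795 of mm9, was detected on no array, so the high adult signal of Col5a3 was carried by a single probe.

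Col27a1, a fibrillar chain known from cartilage, read -0.20 and -0.18 on the E13 arrays and -1.99 and -2.71 on the adult arrays. The E13 arrays were almost equal here. The level was 4.47-fold higher in E13 hepatoblasts, and its 2 probes gave log2 differences of -2.16 and -2.08. Col11a1, a type XI chain that also regulates fibril width, read -1.55 and -3.20 against -2.75 and -3.02. The E13 arrays of Col11a1 thus spanned the adult ones (adjusted p = 0.47). The gene passed as higher in E13 hepatoblasts with spike-in scaling (log2 difference -1.74, adjusted p = 0.029). Without E13 array 1 its log2 difference was 0.32, and without E13 array 2 it was -1.33 and passed (adjusted p = 0.021).

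Col2a1, the main fibrillar chain of cartilage, gave different answers by probe. The probe used for the gene, the brighter one, read -0.25 and -0.14 on the E13 arrays and -0.25 and -0.45 on the adult arrays, and the groups overlapped (adjusted p = 0.42). The other tested probe read -0.64 and -2.09 on the E13 arrays and -4.64 and -4.74 on the adult arrays, where it was not well above background. Over the probes this gave a bound of 4.27-fold higher in E13 hepatoblasts (adjusted p = 0.0041).

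Both Col2a1 probes are 60 bases long, lie on the minus strand of chromosome 15 and share 40 bases. Their own ends, the only bases in which they differ, are printed here because the 2 readings of this gene differ while most of the target is shared. The brighter probe begins with its own 20 bases at chr15:97806545-97806564 of mm9, and the dimmer one ends with its own 20 bases at chr15:97806485-97806504. They are written 5′ to 3′ on the strand of the gene, without capitals.
Col2a1 brighter probe, own end: ctcccgccttcccattattg
Col2a1 dimmer probe, own end: tggtgtggacatagggcctg
The ends are 55% and 60% G and C. Without Col2a1 the counts over the collagen genes were the same 13 and 8. The mean of its probes would have added Col2a1 to the E13 calls (log2 difference -1.74, adjusted p = 0.0044). Spike-in scaling would have done so through the brighter probe (-1.39, adjusted p = 0.00095), when the median of all genes tested was -1.24.

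**Figure D2:**
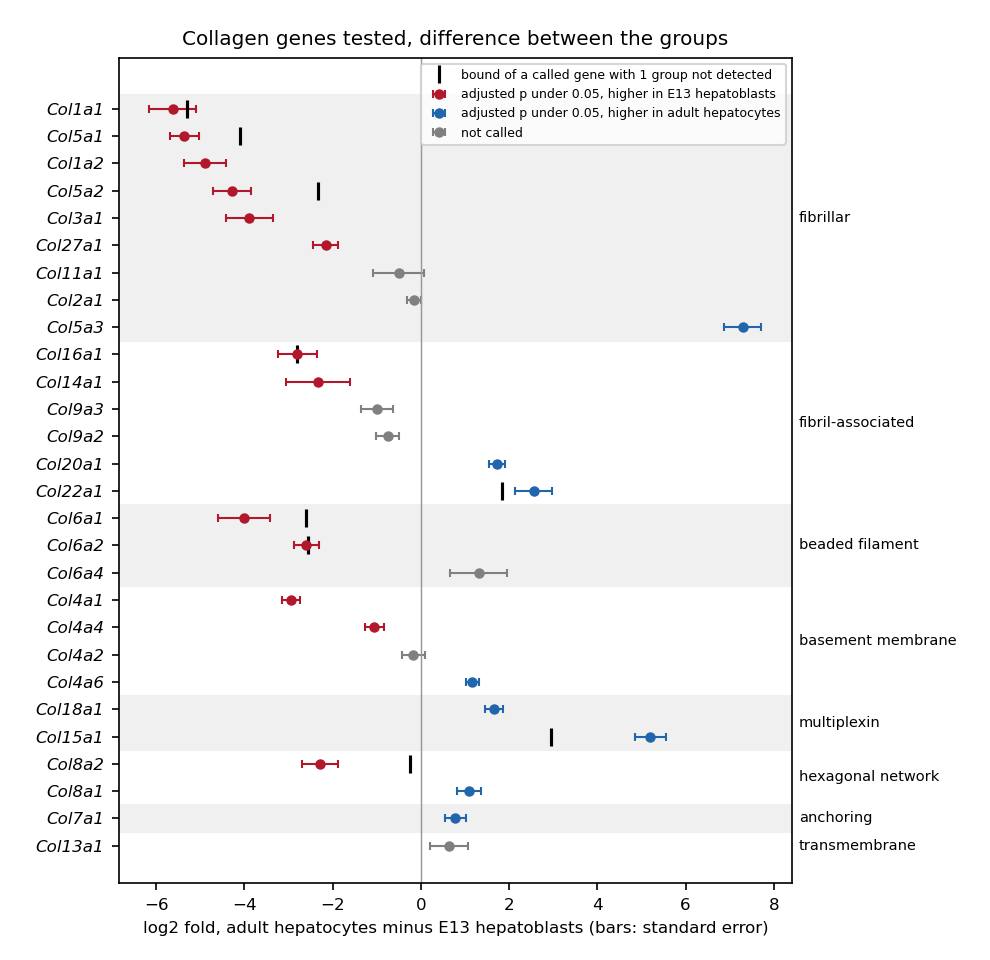
Log2 difference between the groups (x axis, adult hepatocytes minus E13 hepatoblasts) with its standard error for the 28 collagen genes tested, coloured by call. Black ticks give the bound for called genes that 1 group did not detect, such as Col1a1 at 39.6-fold and Col15a1 at 7.67-fold, and Col5a3 lies farthest to the right.

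The network-forming chains of basement membrane split among themselves. Of the 6 type IV genes, 4 were tested: Col4a1 and Col4a4 were called higher in E13 hepatoblasts, Col4a6 higher in adult hepatocytes and Col4a2 in neither direction. Col4a3 was detected on no array.

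Col4a1 and Col4a2 encode the 2 chains of the common type IV molecule. In the RefSeq gene table they are neighbours on chromosome 8 with 0 protein-coding genes between them, and they are known to share a promoter region and to be read in opposite directions. Col4a1 read 2.09 and 1.68 on the E13 arrays and -0.94 and -1.17 on the adult arrays, a level 7.69-fold higher in E13 hepatoblasts (adjusted p = 0.00051). Col4a2 read 0.71 and 0.22 against 0.51 and 0.08, and the groups overlapped (log2 difference -0.17 ± 0.26 SE, adjusted p = 0.59). Without E13 array 1 the Col4a2 difference was 0.076, and without adult array 2 it was 0.047.

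The gap between the signals of Col4a1 and Col4a2 on an array, which holds a constant from the 2 probes, was 1.38 and 1.46 on the E13 arrays and -1.45 and -1.25 on the adult arrays. With 2 arrays a group, an exact two-sided permutation test of this gap cannot go below p = 0.333. The change in the gap was smaller with the other Col4a1 probe, at 0.12 and 0.34 against -0.49 and -0.87. That probe had a log2 difference of -1.08 and also passed (adjusted p = 0.035), and both Col4a2 probes missed the threshold. With spike-in scaling Col4a2 was called higher in E13 hepatoblasts as well (log2 difference -1.40, adjusted p = 0.0055).

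The remaining type IV chains are arranged in 2 further neighbouring pairs, and in each only 1 gene was tested. Col4a4, whose protein assembles with the Col4a3 and Col4a5 chains in kidney basement membrane, read 1.32 and 1.53 against 0.58 and 0.15, a level 2.08-fold higher in E13 hepatoblasts (adjusted p = 0.011). Without E13 array 2 that call was lost (log2 difference -0.95, adjusted p = 0.066). Col4a6, next to Col4a5 on the X chromosome, read -1.35 and -1.29 on the E13 arrays and -0.20 and -0.11 on the adult arrays, a level 2.24-fold higher in adult hepatocytes (adjusted p = 0.0025). With spike-in scaling the Col4a6 difference turned to -0.068 and was not called. The further probes of Col4a4 and of Col4a6 were detected on no array, so the values of each gene came from a single probe.

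Type VI collagen forms beaded filaments close to cells. Of its 4 genes on the array, 3 were tested, Col6a1 and Col6a2 were called higher in E13 hepatoblasts, and Col6a6 was detected on no array. Col6a1 read -0.22 and -1.46 on the E13 arrays and -5.47 and -4.24 on the adult arrays, where it was not detected, a bound of 6.12-fold (adjusted p = 0.0045). Col6a2 read -0.53 and -1.22 against -3.59 and -3.35, also not detected on the adult arrays, a bound of 5.86-fold (adjusted p = 0.0017). The 2 genes lie next to each other on chromosome 10, and their products assemble with a further type VI chain. Col6a4 read -2.83 and -2.81 against -0.55 and -2.46, and the wide spread of the adult arrays left it uncalled (adjusted p = 0.14). Without adult array 2 it passed as higher in adult hepatocytes (log2 difference 2.26, adjusted p = 0.0028).

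Fibril-associated collagens sit on the surface of fibrils. Of their 9 genes on the array, 6 were tested: Col14a1 and Col16a1 were called higher in E13 hepatoblasts, Col20a1 and Col22a1 higher in adult hepatocytes, and Col9a2 and Col9a3 in neither direction. Col9a1, Col12a1 and Col19a1 were detected on no array.

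Col16a1 read 0.08 and -1.18 on the E13 arrays and -3.39 and -3.32 on the adult arrays, where it was not detected, a bound of 6.97-fold (adjusted p = 0.0054). Col14a1, a partner of type I fibrils, read 0.91 and -1.11 against -2.79 and -2.07. Its E13 arrays were 2.03 apart, the widest gap among the collagen genes detected on both. The level was 5.03-fold higher in E13 hepatoblasts, close to the threshold (adjusted p = 0.043). The Col14a1 call was lost without E13 array 1 (log2 difference -1.32, adjusted p = 0.060), without adult array 1 (-1.97, adjusted p = 0.16) and without adult array 2 (-2.69, adjusted p = 0.086), and with quantile normalization (-2.30, adjusted p = 0.059).

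Col22a1 was not detected on the E13 arrays, at -4.73 and -5.89, and read -2.64 and -2.86 on the adult arrays, a bound of 3.56-fold in favour of adult hepatocytes (adjusted p = 0.0059). Col20a1 read -4.38 and -4.17 against -2.40 and -2.71, a level 3.30-fold higher in adult hepatocytes (adjusted p = 0.0017), which spike-in scaling took below the threshold (log2 difference 0.49, adjusted p = 0.071). Both genes were dim on all arrays, with every value below the 75th percentile. Col9a2 read -0.74 and -1.27 against -1.58 and -1.94, and Col9a3 read -4.23 and -4.14 against -4.68 and -5.69. In both type IX genes the E13 arrays were above the adult ones, and both missed the threshold (adjusted p = 0.052 and 0.065). Col9a3 was not detected on the adult arrays, whose lowest detected values were -3.5 and -3.41. Its E13 values lay below these, so no bound on a difference could be given for it. Col9a2 passed in 7 of 16 alternatives, among them without E13 array 2 (log2 difference -1.02, adjusted p = 0.047), with the replicate number as a block (adjusted p = 0.034) and with spike-in scaling (-1.99, adjusted p = 0.0012). Col9a3 passed without adult array 1 (-1.50, adjusted p = 0.0058) and with spike-in scaling (-2.23, adjusted p = 0.0014), but in the opposite direction with the normexp correction (0.49, adjusted p = 0.023).

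Both multiplexins, basement-membrane collagens with interrupted helices, were called higher in adult hepatocytes. Col18a1 read 6.21 and 5.78 on the E13 arrays and 7.69 and 7.60 on the adult arrays, well above the 75th percentile on all 4. The level was 3.14-fold higher in adult hepatocytes (log2 1.65 ± 0.20 SE, adjusted p = 0.0024), and its other probe gave a log2 difference of 1.58. With spike-in scaling the log2 difference of Col18a1 was 0.42 and missed the threshold (adjusted p = 0.18). Col15a1 was not detected on the E13 arrays, at -7.02 and -6.72, and read -2.13 and -1.21 on the adult arrays, at least 7.67-fold higher there (adjusted p = 0.00045). A further Col15a1 probe was detected on no array.

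The hexagonal-network chains Col8a1 and Col8a2, which together form type VIII collagen of vessel walls, had opposite directions. Col8a1 read -3.15 and -3.80 against -2.55 and -2.23, a level 2.12-fold higher in adult hepatocytes (adjusted p = 0.024). Col8a2 read -2.65 and -3.78 against -5.45 and -5.56, not detected on the adult arrays, which bounds it at only 1.18-fold higher in E13 hepatoblasts (adjusted p = 0.0075). The Col8a1 call was lost without E13 array 2 (log2 difference 0.76, adjusted p = 0.084) and without adult array 2 (0.92, adjusted p = 0.093), and with spike-in scaling the difference turned to -0.15. With the normexp correction the Col8a2 difference turned to 0.12 and was not called. Col10a1, the third member of the class, was detected on no array.

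Among the remaining chains, Col7a1, the anchoring-fibril collagen, read -2.39 and -2.20 against -1.24 and -1.79 and was 1.71-fold higher in adult hepatocytes (adjusted p = 0.041). The Col7a1 call was lost without E13 array 1 (log2 difference 0.68, adjusted p = 0.17), E13 array 2 (0.87, adjusted p = 0.10) or adult array 1 (0.50, adjusted p = 0.084), with the replicate number as a block (adjusted p = 0.061) and when scaled to probes detected on all arrays (0.74, adjusted p = 0.052). With spike-in scaling it turned to -0.46. Col13a1, a transmembrane collagen, read -2.42 and -3.13 against -2.64 and -1.65, and the groups overlapped (adjusted p = 0.25). With the normexp correction it passed as higher in adult hepatocytes (log2 difference 0.58, adjusted p = 0.015), and with spike-in scaling the difference turned to -0.60. Col28a1, Col17a1 and Col23a1 were detected on no array.

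The floor of the arrays limits what the undetected genes show. The lowest detected value was -4.78 and -4.44 on the E13 arrays and -3.50 and -3.41 on the adult arrays, so the adult arrays reached less far down relative to their 75th percentile. The median value of the collagen genes detected on no array was -6.28 and -6.55 on the E13 arrays and -5.64 and -5.56 on the adult arrays. Col4a5 read -4.15 and -4.60 against -4.14 and -4.37, and the brightest Col25a1 probe -4.45 and -4.68 against -4.44 and -4.47, all near those floors. A difference at such levels was not detectable here.

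Of the 7 collagen genes with more than 1 tested probe, 5 had probes with the same outcome, all but Col2a1 and Col5a1. The called genes Col3a1, Col8a1, Col14a1 and Col16a1 each had a further probe that was detected on no array. The other Col5a1 probe, which the files place between positions 27842243 and 27844666 of chromosome 2 (mm9), read -3.25 and -3.68 against -2.92 and -3.53 and was not called (adjusted p = 0.48). With each probe fitted on its own, 17 of 35 collagen probes (48.6%) were called higher in E13 hepatoblasts and 9 higher in adult hepatocytes. Over all 23463 probes tested the shares were 32.9% and 30.7%.

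**Figure D3:**
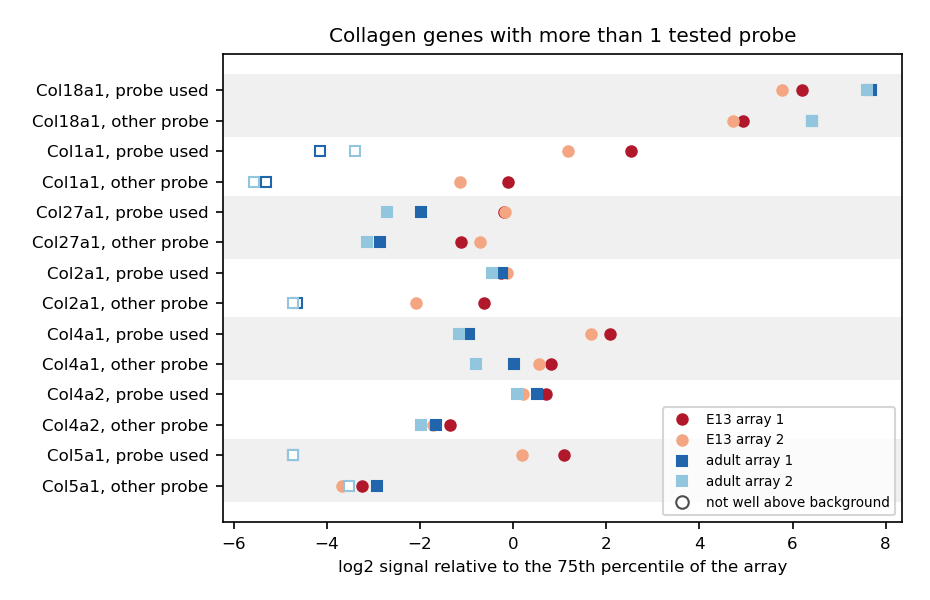
Level (x axis, log2 signal with the 75th percentile of each array at 0) of every tested probe of the 7 collagen genes with more than 1, with circles for E13 arrays, squares for adult arrays and open symbols for probes not well above background. The Col2a1 and Col5a1 rows show 1 probe with the groups together and another with the groups apart.

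Of 18 tested genes that modify and fold collagen chains in the endoplasmic reticulum, 12 were called higher in E13 hepatoblasts (66.7%, against 32.8% of all genes tested), 2 higher in adult hepatocytes (11.1%, against 32.1%) and 4 in neither direction. The median log2 difference was -1.36. The 2 adult calls became 1 without E13 array 1, E13 array 2 or adult array 2. Serpinh1, the collagen chaperone Hsp47, read 2.87 and 2.73 on the E13 arrays and -2.91 and -2.43 on the adult arrays, 44.3-fold higher in E13 hepatoblasts (adjusted p = 0.00012). The E13 arrays were close together and all 4 detected it.

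Fkbp10, a prolyl isomerase needed for type I collagen, was at least 97-fold higher in E13 hepatoblasts, and Leprel4, a partner of a lysyl hydroxylase complex, at least 23.8-fold. Of the prolyl 4-hydroxylase subunits, which make the hydroxyproline that stabilises the helix, P4ha1 was 2.34-fold higher in E13 hepatoblasts (adjusted p = 0.0099). P4ha2 was 1.66-fold higher in adult hepatocytes at the edge of the threshold (adjusted p = 0.0497), a call lost without E13 array 1 (log2 difference 0.76, adjusted p = 0.14), E13 array 2 (0.70, adjusted p = 0.17) or adult array 2 (0.44, adjusted p = 0.087) and with the replicate number as a block (adjusted p = 0.063), and turned to -0.50 by spike-in scaling. The shared beta subunit P4hb read 6.05 and 5.86 against 6.23 and 6.27 (adjusted p = 0.15), and the galactosyltransferase Glt25d1 2.47 and 2.33 against 2.59 and 2.69 (adjusted p = 0.22). Tmem38b, an endoplasmic reticulum cation channel needed for collagen modification, was 6.94-fold higher in adult hepatocytes.

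Of 18 tested genes of export, propeptide removal and crosslinking, 6 were called higher in E13 hepatoblasts (33.3%), 5 higher in adult hepatocytes (27.8%) and 7 in neither direction, close to the shares of all genes. The median log2 difference was -0.34. The 5 adult calls became 2 without E13 array 2 and 3 without adult array 2, and with spike-in scaling the calls were 13 and 0. That scaling called 68.6% and 12.2% of all genes tested in these directions. The enhancers of procollagen C-proteinase Pcolce2 and Pcolce were higher in E13 hepatoblasts, Pcolce2 by at least 115.5-fold and Pcolce by 9.92-fold. Pcolce2 read 3.34 and 3.45 on the E13 arrays and was not detected on the adult arrays, at -4.10 and -3.90. Loxl2, which crosslinks type IV collagen and was detected on 1 of the 2 adult arrays, was 92-fold higher in E13 hepatoblasts (adjusted p = 4.35e-05). The exit-site proteins that load bulky cargo, Mia3 and Mia2, were 2.50-fold and 2.28-fold higher in adult hepatocytes. With spike-in scaling their log2 differences were 0.087 and -0.043, neither of them called. The coat protein Sec23a (log2 difference 0.47, adjusted p = 0.19) and Tfg (0.0034, adjusted p = 0.99) passed in neither direction, though Sec23a passed without adult array 1 (0.79, adjusted p = 0.044). Lox did not pass the detection filter.

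Of 9 tested collagenases, peptidases and inhibitors, 5 were called higher in E13 hepatoblasts (55.6%), 3 higher in adult hepatocytes (33.3%) and 1 in neither direction. The 5 became 3 without E13 array 1, E13 array 2 or adult array 1. Mmp2, a gelatinase, was at least 3.36-fold higher in E13 hepatoblasts, Reck, a membrane inhibitor of matrix proteases, 6.17-fold and Mmp14, a membrane-bound collagenase, 2.62-fold. Mmp15, another membrane-type protease, was 3.93-fold higher in adult hepatocytes, and Pepd, which cuts the proline-containing dipeptides left by collagen breakdown, 2.33-fold. With spike-in scaling Pepd turned to a log2 difference of -0.012. Timp3, an inhibitor bound to matrix, passed in neither direction (adjusted p = 0.77).

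Among 7 tested collagen receptors, 4 were called higher in E13 hepatoblasts (57.1%) and 3 in neither direction. The 4 became 2 without E13 array 1, adult array 1 or adult array 2 and with the normexp correction, 0 with probes detected on all arrays only, where the called genes were not tested, and 7 with spike-in scaling. Spike-in scaling called 68.6% of all genes tested higher in E13 hepatoblasts. Gpr56, a type III collagen receptor detected on 1 of the 2 adult arrays, was at least 26.7-fold higher in E13 hepatoblasts. The receptor kinase Ddr1 was at least 3.38-fold higher there and the platelet receptor Gp6, also detected on 1 adult array, at least 2.45-fold. The Gp6 call was lost without E13 array 1 (log2 difference -0.85, adjusted p = 0.070), adult array 1 (-1.48, adjusted p = 0.059) or adult array 2 (-1.12, adjusted p = 0.11) and with the normexp correction (-0.10, adjusted p = 0.66). The integrin subunits Itga1 and Itgb1, which pair as a receptor for type IV and type I collagen, had log2 differences of -0.071 ± 0.20 SE and 0.054 ± 0.21 SE, and passed in neither direction.

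Of 16 tested matrix partners, 9 were called higher in E13 hepatoblasts (56.2%), 3 higher in adult hepatocytes (18.8%) and 4 in neither direction, with a median log2 difference of -2.28. The 3 adult calls became 1 without E13 array 2 and with the replicate number as a block. The basement-membrane proteins Nid1 (nidogen 1) and Hspg2 (perlecan) were 44.2-fold and 15.8-fold higher in E13 hepatoblasts, and Lum, a proteoglycan on collagen fibrils, 20.9-fold. Vtn, a plasma protein made by hepatocytes, was 3.96-fold higher in adult hepatocytes. Fn1 (fibronectin) was 1.5-fold higher there, a call lost without E13 array 1 (log2 difference 0.57, adjusted p = 0.14), E13 array 2 (0.61, adjusted p = 0.12) or adult array 2 (0.46, adjusted p = 0.075) and with the replicate number as a block (adjusted p = 0.069), and turned to -0.65 by spike-in scaling. Dcn and Fmod, which also bind fibrils, passed in neither direction, and both passed as higher in E13 hepatoblasts without E13 array 2 (log2 differences -1.35 and -1.06, adjusted p = 0.027 and 0.030).

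Over these 5 lists, 68 genes were tested, of which 52.9% were called higher in E13 hepatoblasts and 19.1% higher in adult hepatocytes. The shares over all genes were those given above, 32.8% and 32.1%. With spike-in scaling 55 and 3 of the 68 were called, beside 68.6% and 12.2% of all genes tested.

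The 2 E13 arrays differed in part of the collagen genes. Of the 25 collagen genes detected on both, 17 (68%) were brighter on E13 array 1 than on array 2, against 47.1% of all genes, with a median gap of 0.66. Of the 13 genes called higher in E13 hepatoblasts, 11 were brighter on array 1. Their gap ran from -0.22 (Col4a4) to 2.03 (Col14a1), with a median of 1.21. The same gap over the 15752 genes detected on both arrays had a median of -0.016, and its 5th and 95th percentiles were -0.52 and 0.55. Without E13 array 1, 12 collagen genes were called higher in E13 hepatoblasts and 7 higher in adult hepatocytes, and without E13 array 2 these counts were 14 and 6. The gap was 1.36 for Col1a2, 1.35 for Col1a1 and 1.48 for Col3a1, but -0.018 for Col27a1, 0.41 for Col4a1 and 0.43 for Col18a1. On the adult arrays the 6 of the 13 genes detected on both had a median gap of -0.028.

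**Figure D4:**
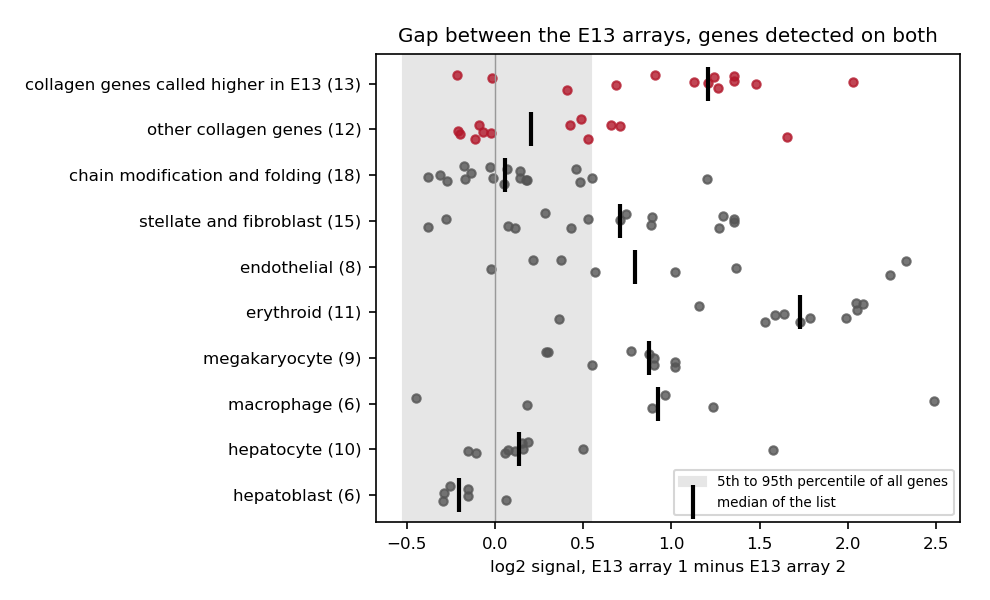
Log2 signal on E13 array 1 minus that on E13 array 2 (x axis) for genes detected on both, 1 point per gene, with the number of genes in brackets, the list median as a black bar and the 5th to 95th percentile of all genes in grey. The collagen genes called higher in E13 hepatoblasts have a median of 1.21, the erythroid markers 1.73, and the chain-modification genes lie around 0.

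Several lists of markers of other liver cells had such gaps as well. The median gap was 0.71 over 15 stellate and fibroblast markers, 0.80 over 8 endothelial, 0.93 over 6 macrophage, 0.88 over 9 megakaryocyte and 1.73 over 11 erythroid markers. It was 0.14 over 10 hepatocyte markers, 0.13 over 4 bile duct markers (2 of 4 brighter on array 1), -0.20 over 6 hepatoblast markers and 0.058 over 18 chain-modification genes, among them Serpinh1. Their part in the collagen values was not tested.

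The labelled cell types were checked against their markers. All 6 hepatoblast markers, among them Afp and Dlk1, were detected on both E13 arrays and called higher there. All 11 hepatocyte markers on the array were detected on the adult arrays and called higher in adult hepatocytes, and 10 of them, all but Cyp2e1, were detected on both E13 arrays.

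Markers of collagen-making cells moved with the fibrillar chains. Of 18 stellate and fibroblast markers, 17 and 15 were detected on the E13 arrays and 8 and 9 on the adult arrays. Their summed level, the log2 of the added signals relative to the 75th percentile, was 7.29 and 7.25 against 5.17 and 5.48. Of 15 tested, 13 were called higher in E13 hepatoblasts (86.7%, against 32.8% of all genes tested) and none higher in adult hepatocytes (against 32.1%). Reln, a secreted protein of stellate cells, read 5.27 and 5.20 on the E13 arrays against -2.38 and -1.78. Tagln and Cygb passed in neither direction, with log2 differences of 0.21 and 0.19. The defining markers Des, Pdgfra, Pdgfrb, Hand2, Lhx2 and Tcf21 were detected on no adult array. Their part in the result was not tested, and in bulk RNA fewer cells of a type and less RNA per cell cannot be told apart.

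The other marker lists went in different directions. Their shares of calls stand beside 32.8% of all genes tested called higher in E13 hepatoblasts and 32.1% higher in adult hepatocytes. Of 13 tested endothelial markers, 1 was called higher in E13 hepatoblasts (7.69%) and 6 higher in adult hepatocytes (46.2%). The summed level was 2.82 and 2.16 against 2.48 and 2.60. All 16 endothelial markers were detected on E13 array 1 but only 8 on array 2, and Pecam1, Tek, Lyve1 and Clec14a were detected on no adult array. Of 12 tested macrophage markers, none was called higher in E13 hepatoblasts and 10 higher in adult hepatocytes (83.3%), with summed levels of 1.24 and 0.18 against 3.16 and 2.97. Megakaryocyte markers stood at 5.53 and 4.62 against -0.82 and -0.97, with 9 of 9 called higher in E13 hepatoblasts. Erythroid markers stood at 6.05 and 4.10 against 4.83 and 4.51, with 6 of 11 called higher in E13 hepatoblasts (54.5%) and 1 higher in adult hepatocytes (9.09%). Of 9 mesothelial markers, 4 and 2 were detected on the E13 arrays and 1 on each adult array, and of 10 bile duct markers 5 and 4 against 5 and 4. The part of these cells in the collagen values was not tested.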

How the data were processed

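The intensity values of each one-colour scan came, per the file headers, from Feature Extraction 10.7.3.1, which subtracted background within the array and did not scale arrays to each other. It also set the deposited flags for spots well above background (unit other). The log2 values in the authors' deposited table correlated with log2 of these signals at r = 1 on each array. Here, log2 signals were averaged over the spots of a probe and set relative to the 75th percentile of the array. Leaving out 1639 control spots and 18 probes with an outlier flag kept 30030 of 30038 genes. A probe with several spots counted as detected where at least 0.5 of its spots were.

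Each gene was followed through the brightest of its tested probes. Groups of 2 arrays were compared with limma 3.58.1 in R 4.3.3 (lmFit, then eBayes, on 2 residual degrees of freedom and 2.5 from the prior), with Benjamini-Hochberg adjustment over all 16422 genes. The median standard error was 0.18, and the precision is limited by having 4 arrays. The fit was tested on simulated data with 50 changed genes per size, and recovered 2% of changes of 1 on the log2 scale, 66% of changes of 2 and 88% of changes of 4. The simulation shuffled the spreads of the genes and changed a far smaller share of the 16422 genes than the 64.8% called here. A smaller share of changed genes makes the adjusted threshold stricter, so these are not the recovery rates of this comparison.

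All arrays were on 1 slide with 1 scan time, and no spot was saturated, with 19299 to 23766 probes detected per array. Arrays correlated at r = 0.991 and 0.989 within groups and at 0.727 to 0.742 between them. Same-numbered arrays deviated from their group means with a correlation of -0.156, so the replicate numbers were not treated as pairs.

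The members and the gene lists were chosen with earlier results of these data known. Named are all collagen genes and, per pathway list, the 3 called genes that differed most in its commoner direction, 2 in the opposite one, 2 uncalled ones by list order, and Serpinh1, Lox, P4ha1, P4ha2, Mmp14 and Ddr1. The rule also covers the marker lists, which are given mainly by counts and summed levels. Alternatives were other background correction, scaling, filters, probe rules and variance models, a stricter threshold of 0.01, leaving out each array and the replicate number as a block. The array files place the probes on mm9, for which no annotation was used. All 41 collagen genes were found in the RefSeq gene table of GRCm38.p6, which gave names, neighbours and promoter windows.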

Additional observations from a re-analysis of the deposited data

How the results depend on the processing

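In simulated data with 2 arrays a group, changes of 1 on the log2 scale were rarely recovered (2%). Far fewer genes changed there than were called here, so this is not the recovery rate of the present comparison. Dim genes depend on the background correction. The count of collagen genes higher in E13 hepatoblasts kept within 1.5 times its value of 13 except with probes detected on all arrays only (7), by construction since fewer genes are tested. The count of 8 higher in adult hepatocytes became 3 with spike-in scaling, when 12.2% of all genes tested were called in that direction. It became 5 with probes detected on all arrays only. The median of -0.88 became -0.12 with normexp, -2.11 with spike-in scaling, -0.17 with probes detected on all arrays only and 0.11 with no filter. Leaving out 1 array gave 12 to 14 and 6 to 8 calls and medians of -1.105 to -0.54. With spike-in scaling, the 36 and 13 pathway calls became 55 and 3, beside 68.6% and 12.2% of all genes tested. With probes detected on all arrays only, 19 pathway genes were called higher in E13 hepatoblasts, beside 3694 of 12777 genes in all. With no filter, 20 were called higher in adult hepatocytes, beside 48.7% of all genes. At an adjusted p under 0.01 the adult pathway calls were 6, beside 3669 of 16422 genes in all. Leaving out 1 array gave 31 to 37 and 6 to 11, the lowest without E13 array 2.

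With the replicate block, collagen calls were 14 and 7 and pathway calls 36 and 9, and the numbers gave no pairing. With crossed numbers, an alternative added after seeing the data, they were 14 and 9, and 38 and 11.

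Differences that changed sign, beside those given above, were Col11a1 (0.12), Col9a3 (0.49), Fmod (0.38), Timp3 (0.11), Itga1 (0.072), Itgb1 (-0.053) and Tfg (-0.16) with normexp; Glt25d1 (-0.99), Itgb1 (-1.18), P4hb (-0.94), Sec23a (-0.76) and Tfg (-1.23) with spike-in scaling; and P4hb (-0.35), Itgb1 (-0.0039) and Tfg (-0.56) with quantile normalization. Tfg was -0.037 when scaled to probes detected on all arrays and Itgb1 -0.14 with the mean of its probes. Leaving out 1 array turned Dcn (-1.35 to 0.37), Itga1 (-0.29 to 0.14), Timp3 (-1.04 to 0.58), Itgb1 (-0.17 to 0.28) and Tfg (-0.11 to 0.12). Col11a1 (-1.33 to 0.32), Col4a2 (-0.41 to 0.076), Col4a6 (-0.068), Col7a1 (-0.46), Col8a1 (-0.15), Col8a2 (0.12), Col13a1 (-0.60), Fn1 (-0.65), Mia2 (-0.043), P4ha2 (-0.50) and Pepd (-0.012) turned as given above. The cause of these changes was not tested. The deposited log2 values changed no call among these genes.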
